A study of Homo sapiens with 6 samples.

Results

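Antisense RNAs are transcripts read from the strand opposite a named gene, and many human loci carry one. They are mostly noncoding, spliced and kept at low levels, and many start close to the promoter of the gene that they face. Some are known to act on that gene or on distant RNAs, others are short-lived products of a promoter that fires in both directions, and for most no role is established. Expressed antisense RNAs were taken here as the genes whose symbol ends in -AS or -AS with a number and whose mean count over the 6 samples was at least 100. Of 33007 genes in the deposited table, 920 bear such a name once those not reported here are left out, and 178 of these passed that mean count. The counts themselves therefore chose the members, and since the mean runs over both groups, an RNA that is higher in 1 group can meet the rule through that group. This held for 17 members, which had a control mean below 100, and no member had a knockdown mean below 100. The gene named before -AS is called the sense gene.

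RNA-seq was performed in LM3 cells, an established human hepatocellular carcinoma (HCC) line. The control group held 3 samples with the empty vector, labelled WT, and the other group held 3 samples with stable knockdown of ZNF706, a small zinc finger protein. The knockdown came from a short hairpin RNA in the lentiviral vector pLKO.1 with puromycin selection. Which ZNF706 hairpin the sequenced cells carried is not given in the sources used here. No source used here says whether the samples of a group were separate cultures, so p-values measure the spread between these samples, which may be technical. The control libraries summed to 62684076, 64713764 and 63054445 counts, and the deeper knockdown libraries to 68548419, 65861994 and 69057423. Normalised levels (CPM, the counts scaled to the library by TMM) are given below, and log2FC is the log2 fold change of knockdown over control, with its standard error (SE). As bulk samples were sequenced, fewer cells that carry an RNA and less of it per cell cannot be told apart.

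ZNF706 was measured first, as a check of the labels. It was counted 3211, 3504 and 3357 times in the control group and 2350, 2068 and 2298 times after knockdown. Every knockdown sample was below every control sample, at 32.4 ± 1.39 against 53.9 ± 1.76 CPM (SD, n = 3 each). The log2FC was -0.73 (SE 0.050, adjusted p = 3.7e-05 in edgeR), a fall by 39.9%. The keratins KRT8 and KRT18 of simple epithelium had mean values of 196 and 266 FPKM, the deposited unit scaled by gene length and library size. The other epithelial genes listed, KRT19, CDH1 and EPCAM, were at 0.663, 0.375 and 0.178 FPKM. None of the 5 was called. Log2FC values were 0.006 for KRT8, -0.10 for KRT18, 0.83 for KRT19, 0.59 for CDH1 and 0.75 for EPCAM. Their median was 0.59 (0.10 without knockdown replicate 2), and the groups did not overlap in KRT19 (higher) and KRT18 (lower). By DESeq2, with a replicate block and without control replicate 1, 1 of them was called higher and 1 lower. Genes that define hepatocytes were low, with 2.17 FPKM for ALB, 0.647 for AFP and 3 of 12 such genes under 0.1 FPKM. Their sum was 5.29, 10.6 and 12.3 FPKM in the control and 4.61, 4.92 and 4.15 FPKM in the knockdown samples. The groups were apart in only 3 of the 11 tested genes. They overlapped in others such as ALB, at 0.77, 3.54 and 3.57 FPKM in the control and 2.17, 2.45 and 0.50 FPKM in the knockdown samples. The median log2FC of the tested genes was -0.85. With 12 tested, it was -0.55 without control replicate 2, -0.43 without control replicate 3 and -0.29 without knockdown replicate 3. All 11 tested with every sample lay below 0. Of these, SERPINA1, a protease inhibitor of plasma (-1.47, adjusted p = 0.0034 in edgeR), and APOB, the protein of low density lipoprotein (-0.98, adjusted p = 0.021, and up to 0.087 without control replicate 3), were called lower. Among markers of other cells, the fibroblast genes PDGFRB (0.68, adjusted p = 0.0030) and COL1A1 (0.20, adjusted p = 0.0023) were higher and the endothelial CDH5 (-0.70, adjusted p = 0.0014) was lower, and the most abundant gene of each list was COL1A1 at 7.73 FPKM and CDH5 at 1.02 FPKM. The other tested genes of these lists were not called, with log2FC values of -0.04 for DCN, 0.15 for the endothelial PECAM1 and -2.04 for COL3A1. COL3A1 was scattered, with 336, 0 and 48 counts in the control and 42, 61 and 0 in the knockdown samples. Its log2FC ran from -2.78 to 0.36 with 1 sample left out. The fibroblast sum was 8.56, 7.65 and 7.95 FPKM against 9.56, 9.79 and 9.53 after knockdown, and the endothelial sum 1.79, 1.91 and 2.06 against 1.43, 1.61 and 1.69, without overlap of the groups in either list. Of 5 leukocyte genes listed, PTPRC, which marks all leukocytes, had a mean of 0.0033 FPKM. The sum over the 4 of them in the table was 10.9, 10.9 and 11.3 FPKM in the control and 16.9, 18.2 and 16.7 FPKM in the knockdown samples, nearly all of it from CD68, a lysosomal protein also made outside macrophages. CD68 was called higher (0.64, adjusted p = 0.00011). The part of these marker changes in the results below was not tested.

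The members were grouped by their position relative to the sense gene. In 84 of the 178 the antisense and the sense gene lay head to head, with their starts facing away from each other, and in 47 they lay tail to tail. The antisense gene was inside the sense gene in 22 and enclosed it in 15. A further 5 lay apart from the gene they are named after, and 5 had no sense row in the table. RefSeq windows from 250 bases before to 50 bases after a start were matched to 130 members (GRCh38.p14). Their median GC content was 64.3%, and that of all 35116 windows was 58.7%. The sequences of 4 members with called changes are printed in the direction of the antisense RNA to show what such starts look like. The window of UBAC2-AS1 shows the head to head arrangement, since the 196 bases in capitals are also in the window of UBAC2, whose start was 97 bases away on the other strand (chr13:99200708-99201007, minus strand).

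UBAC2-AS1: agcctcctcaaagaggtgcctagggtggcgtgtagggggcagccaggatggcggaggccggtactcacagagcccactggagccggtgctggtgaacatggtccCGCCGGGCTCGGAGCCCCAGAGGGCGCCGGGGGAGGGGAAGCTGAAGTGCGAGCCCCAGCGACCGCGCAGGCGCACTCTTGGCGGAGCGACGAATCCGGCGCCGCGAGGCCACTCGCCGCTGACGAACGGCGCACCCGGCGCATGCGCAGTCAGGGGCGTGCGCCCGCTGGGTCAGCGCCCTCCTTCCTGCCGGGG

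The other windows show motifs. The cAMP response element TGACGTCA was found in 3 of the 130 windows (2.31%, against 1.85% of all windows), and in capitals it is marked in BTG3-AS1 (chr21:17611436-17611735, plus strand) and GATA2-AS1 (chr3:128488953-128489252, plus strand). The former RNA rose and the latter fell, while EMC3-AS1, the third with this motif, was not called (log2FC -0.21, adjusted p = 0.35 in edgeR).

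BTG3-AS1: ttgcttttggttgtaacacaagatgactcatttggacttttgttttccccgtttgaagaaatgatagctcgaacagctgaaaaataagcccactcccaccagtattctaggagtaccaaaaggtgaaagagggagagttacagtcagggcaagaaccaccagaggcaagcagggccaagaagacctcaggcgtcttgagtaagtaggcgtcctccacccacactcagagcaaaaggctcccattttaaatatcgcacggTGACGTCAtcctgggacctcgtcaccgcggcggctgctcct

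GATA2-AS1: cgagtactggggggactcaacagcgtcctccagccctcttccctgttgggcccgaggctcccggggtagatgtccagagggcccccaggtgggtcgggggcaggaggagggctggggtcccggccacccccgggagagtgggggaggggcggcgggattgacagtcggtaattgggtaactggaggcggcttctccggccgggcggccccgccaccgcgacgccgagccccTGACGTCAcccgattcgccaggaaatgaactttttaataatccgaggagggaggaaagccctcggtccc

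The E-box CACGTG was in 11 windows (8.46%, against 7.26% of all), and the window of ADIRF-AS1 held it at 2 places and the ETS-type motif CCGGAAG at 1 place, all in capitals (chr10:86971191-86971490, minus strand). CCGGAAG was in 21 windows (16.2%, against 10.3%), and the TATA motif TATAAA in 6 (4.62%, against 11.5%). The sets are unlike, since all windows were taken whatever the count of the gene, and the members' windows were richer in GC (64.3% against 58.7%). The part of this in the motif shares was not tested. Both strands were searched for each motif, and these 4 motifs do not contain one another. A match describes the letters and is no evidence of binding.

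ADIRF-AS1: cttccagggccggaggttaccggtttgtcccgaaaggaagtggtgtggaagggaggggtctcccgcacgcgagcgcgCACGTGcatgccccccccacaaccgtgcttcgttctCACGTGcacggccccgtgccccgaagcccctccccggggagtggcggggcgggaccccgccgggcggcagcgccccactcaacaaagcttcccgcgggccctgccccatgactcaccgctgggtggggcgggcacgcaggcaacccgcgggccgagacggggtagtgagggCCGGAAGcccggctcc

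Levels were compared per length, in FPKM. Over the 6 samples the members had mean values between 0.103 and 42.8 FPKM with a median of 0.954, and their 171 distinct sense genes had a median of 6.13. In the 173 members with a sense row, the median member reached 17.9% of its sense gene's FPKM. The antisense RNA was under 10% of the sense gene in 63 of them and above it in 37. FGD5-AS1 had the highest level of all members, at 42.8 FPKM, while FGD5 had at most 4 counts in any sample. OIP5-AS1, the conserved cyrano RNA, which binds a microRNA, followed at 17.6 FPKM, next to 24.7 for OIP5, a centromere protein. VPS9D1-AS1 and THAP9-AS1 were at 10.5 and 9.24 FPKM and exceeded VPS9D1 (1.65) and the transposase-derived THAP9 (0.798). KRT7-AS and MIF-AS1 were at 10.3 and 7.30 FPKM beside much more abundant sense genes, the keratin KRT7 (294) and the cytokine MIF (240). These levels describe what the mean count had chosen.

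**Figure D1:**
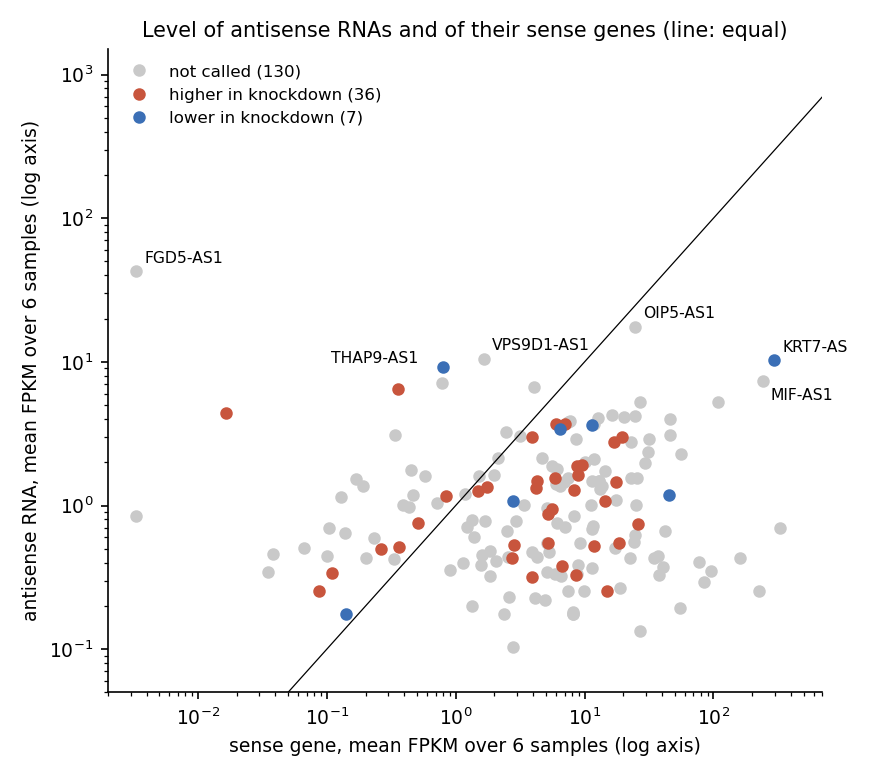
Mean FPKM over the 6 samples of each antisense RNA (vertical, log axis) against that of its sense gene (horizontal, log axis), for the 173 members with a sense row, with 1 point per member and the line at equal levels. Most points lie below the line, and 37 lie above it, among them FGD5-AS1 at the upper left, and colours mark the 36 higher and 7 lower calls among these members.

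All 178 members passed the filter on low counts and were tested in the same fit as the other genes. Of these, 38 (21.3%) were higher and 7 (3.93%) lower in the knockdown at an adjusted p below 0.05 in edgeR's quasi-likelihood test. Over all 18390 genes tested, 10.4% were called higher and 12.4% lower. The members' median log2FC was 0.25, beside 0.0095 for all genes, and 125 members lay above 0 and 53 below. The changes were mostly moderate, since the called rises ran from 0.23 to 1.20 with a median of 0.58, and the falls from -0.68 to -0.21. The knockdown and control values did not overlap in 68 members that were higher (38.2%) and 16 that were lower (8.99%), where 19.7% of all genes did so in each direction. None of the 45 called members overlapped between the groups, which adds no separate support, since the calls rest on the same values.

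The balance over all genes depended on the scaling, because 1906 genes rose and 2286 fell with TMM, whereas 2742 rose and 1518 fell with scaling by library size alone. For the members this gave 38 and 7 with TMM and 50 and 4 by library size. Leaving out 1 sample left between 24 (without control replicate 3 or knockdown replicate 2) and 38 (without control replicate 1) called members, with 27, 28 and 25 without control replicate 2, knockdown replicate 1 and knockdown replicate 3, and 17 members were called in each of these 6 fits, 15 higher and 2 lower. In these fits between 11.2% and 19.1% of the members were higher and between 1.69% and 2.25% lower, where between 6.01% and 7.79% of all genes were higher and between 7.85% and 10.2% lower. Without the 17 members that met the rule through the knockdown samples, 34 of 161 were higher and 7 lower.

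The largest rise was in BTG3-AS1 (ENSG00000280594, chromosome 21, 17611744 to 17633199, GRCh38), head to head with BTG3, an antiproliferative protein of the BTG/TOB family. BTG3-AS1 was counted 81, 90 and 78 times in the control group and 228, 181 and 226 times after knockdown, so that it met the mean count of 100 only through the knockdown samples. The groups were well apart, and the log2FC was 1.20 (SE 0.18, adjusted p = 0.0015 in edgeR). BTG3 itself was counted 4964, 4829 and 4865 times in the control group and 4002, 3834 and 4230 times after knockdown. It thus moved the other way, with a log2FC of -0.43 (adjusted p = 0.00014).

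A2M-AS1 (ENSG00000245105, chromosome 12, 9065163 to 9068689) lies tail to tail with A2M, which encodes the plasma protease inhibitor alpha-2-macroglobulin. A2M-AS1 was counted 128, 84 and 149 times in the control group and 303, 290 and 225 times after knockdown. All knockdown samples were above all control samples, with a log2FC of 1.03 (SE 0.24, adjusted p = 0.012 in edgeR, 0.054 without knockdown replicate 2 and 0.051 without the filter on low counts). A2M fell from 2993, 3189 and 2860 counts to 1777, 1658 and 2093, a log2FC of -0.86 (adjusted p = 9.8e-05).

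In other rises the sense gene was not called. The first 2 of these, SNAI3-AS1 and UBAC2-AS1, met the mean count of 100 only through the knockdown samples, where they are high. SNAI3-AS1 (ENSG00000260630, chromosome 16, 88663298 to 88687278) was counted 65, 58 and 84 times in the control group and 170, 157 and 190 times after knockdown. Its log2FC was 1.17 (adjusted p = 0.0046 from edgeR), while SNAI3, of the Snail family of repressors, had at most 16 counts in any sample. UBAC2-AS1 (ENSG00000228889, chromosome 13, 99181223 to 99200710) had 78, 67 and 54 counts against 175, 101 and 166, and the knockdown sample nearest the control samples was replicate 2. Its log2FC was 1.00 (adjusted p = 0.023), with an adjusted p of 0.067 without control replicate 2, 0.077 without control replicate 3, 0.083 without knockdown replicate 1, 0.074 without knockdown replicate 3 and 0.066 without the filter. UBAC2, a membrane protein of the endoplasmic reticulum, had a log2FC of -0.12 (adjusted p = 0.17, and 0.031 without control replicate 1). CCDC18-AS1 (ENSG00000223745, chromosome 1, 93262186 to 93345859) had 120, 102 and 88 counts against 226, 202 and 187, a log2FC of 0.84 (adjusted p = 0.011), beside -0.02 for CCDC18.

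ADIRF-AS1 (ENSG00000272734, chromosome 10, 86965345 to 86971311) encloses ADIRF, a factor of adipocyte differentiation. It was counted 247, 187 and 327 times in the control group and 654, 574 and 505 times after knockdown, a log2FC of 1.03 (SE 0.20, adjusted p = 0.0053 in edgeR). ADIRF was scattered, with 117, 320 and 199 counts against 335, 411 and 541. Its groups overlapped in CPM, with a log2FC of 0.87 (adjusted p = 0.070 in edgeR), and it was called with a replicate block (0.95, adjusted p = 0.017), by DESeq2 (adjusted p = 0.0087) and without control replicate 2 (adjusted p = 0.020). Exons of other genes on its own strand cover 15.7% of the exonic bases of ADIRF-AS1 in GENCODE release 29, and reads could be split there.

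NINJ2-AS1 and ZNF436-AS1 rose together with their sense genes. NINJ2-AS1 (ENSG00000177406, chromosome 12, 630858 to 645878), inside the gene of the adhesion protein NINJ2, was counted 808, 826 and 779 times in the control group and 1695, 1469 and 1769 times after knockdown. It was the rise with the smallest p among the members, with a log2FC of 0.88 (SE 0.081, adjusted p = 0.00012 in edgeR), and NINJ2 rose by 0.50 (adjusted p = 0.0039). ZNF436-AS1 (ENSG00000249087, chromosome 1, 23368997 to 23371783) had 178, 163 and 171 counts against 367, 359 and 381. The samples of each group were close together. Its log2FC was 0.96 (adjusted p = 0.00087), and that of ZNF436, a zinc finger protein, was 0.28 (adjusted p = 0.034, but from 0.051 to 0.11 in 5 of the 6 fits with 1 sample left out, the exception being without control replicate 1, and 0.070 without the filter).

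Only 7 members fell. KRT7-AS (ENSG00000257671, chromosome 12, 52245048 to 52247448), within the gene of keratin 7, was counted 1371, 1530 and 1457 times in the control group and 1199, 1103 and 1125 times after knockdown. Its log2FC was -0.50 (SE 0.073, adjusted p = 0.0013 in edgeR), next to -0.48 for KRT7 (adjusted p = 1.5e-05). Exons of the other strand cover 16.7% of its exonic bases. SLC16A1-AS1 (ENSG00000226419, chromosome 1, 112956415 to 113047055) had 1253, 1274 and 1285 counts against 954, 950 and 972, so that its groups were far apart. It fell by 0.56 on the log2 scale (adjusted p = 0.00074), and SLC16A1, the lactate transporter MCT1, by 0.26 (adjusted p = 0.00049). These were the pair of falls that was called with any sample left out.

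C1QTNF1-AS1 (ENSG00000265096, chromosome 17, 79018131 to 79027673) showed the largest fall, from 164, 187 and 237 counts to 122, 135 and 151. Its log2FC was -0.68 (adjusted p = 0.035 from edgeR), and the call was lost when any sample but control replicate 1 was left out (adjusted p from 0.056 to 0.13) and in the unfiltered fit (adjusted p = 0.084). The secreted protein gene C1QTNF1 fell by 0.60 (adjusted p = 0.0012). TTN-AS1 (ENSG00000237298, chromosome 2, 178521183 to 178779963) had 431, 409 and 345 counts against 301, 305 and 300, a log2FC of -0.53 (adjusted p = 0.014, and 0.053 without control replicate 1), but -0.33 with limma on FPKM (adjusted p = 0.37). TTN, the gene of the muscle protein titin, fell by 0.41 (adjusted p = 0.019, and 0.051, 0.053, 0.075 and 0.061 without control replicates 1 and 3 and knockdown replicates 2 and 3, and 0.053 without the filter), and was at -0.20 with limma on FPKM (adjusted p = 0.62). As 55.1% of the exonic bases of TTN-AS1 lie under exons of the other strand, those reads cannot be told apart without strand.

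The remaining falls were small. GATA2-AS1 (-0.31, adjusted p = 0.029 from edgeR), NNT-AS1 (-0.24, adjusted p = 0.022) and THAP9-AS1 (-0.21, adjusted p = 0.026) are head to head with GATA2, a transcription factor, NNT, which makes NADPH in mitochondria, and THAP9. Their sense genes were not called, with log2FC values of -0.13, -0.08 and 0.08, but GATA2 was called lower without knockdown replicate 3 (-0.16, adjusted p = 0.040). The 3 calls were held in 1, 2 and 1 of the 6 fits with 1 sample left out, with adjusted p values of up to 0.11 without knockdown replicate 2, 0.070 without knockdown replicate 1 and 0.099 without control replicate 2. With scaling by library size none of the 3 was called by edgeR (adjusted p = 0.064, 0.060 and 0.094), and with limma on FPKM NNT-AS1 and THAP9-AS1 were not called either (adjusted p = 0.062 and 0.13). THAP9-AS1 was not called in the unfiltered fit (adjusted p = 0.069).

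**Figure D2:**
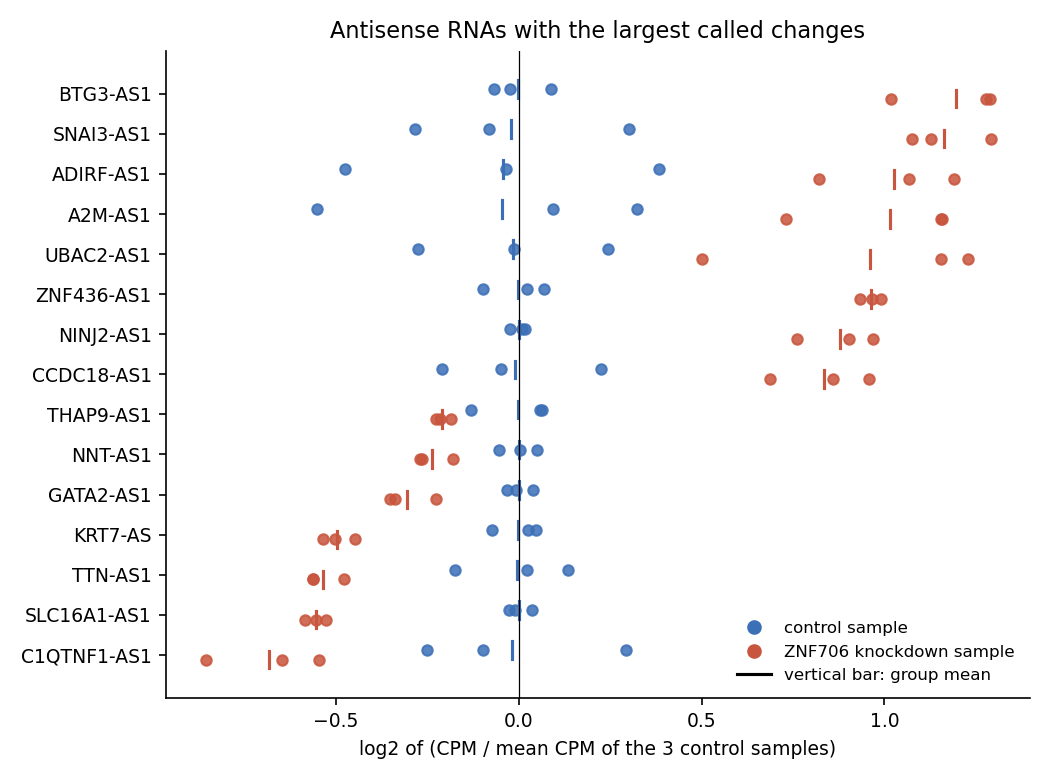
TMM-scaled CPM of the 8 largest called rises and the 7 called falls in each of the 6 samples, as log2 of the ratio to the mean of the 3 control samples (horizontal), with 1 row per antisense RNA, blue points for control and red points for knockdown samples and a bar at each group's mean. No row has overlapping groups, and the knockdown samples are the most scattered in UBAC2-AS1.

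Most of the abundant and well-studied antisense RNAs showed small differences. FGD5-AS1 was counted 16215, 16333 and 15895 times in the control group and 17148, 16377 and 17137 times after knockdown, a log2FC of -0.08 (SE 0.030, adjusted p = 0.068 in edgeR), though DESeq2 called it lower (-0.09, adjusted p = 0.023). OIP5-AS1 was at -0.05 (adjusted p = 0.25) and MIF-AS1 at 0.03 (adjusted p = 0.93). VPS9D1-AS1 was at 0.25 (adjusted p = 0.072 in edgeR), but was called with a replicate block (adjusted p = 0.045), with scaling by library size (0.033), by DESeq2 (0.030) and by limma on FPKM (0.034). MAPKAPK5-AS1 missed the threshold narrowly, at 0.31 (adjusted p = 0.050). PSMA3-AS1 (-0.06), TMPO-AS1 (-0.08), PCBP1-AS1 (-0.14), NUTM2A-AS1 (-0.05), ZNF674-AS1 (0.06) and FOXD2-AS1 (0.27) were not called either. Among the well-studied members LOXL1-AS1 rose by 0.37 (adjusted p = 0.035, held in 1 of the 6 fits with 1 sample left out, with up to 0.13 without control replicate 3) and DLGAP1-AS1 by 0.46 (adjusted p = 0.018, held in 4 of them, with up to 0.063 without knockdown replicate 2).

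Next, the sense genes were examined in the same fit. Of the 171 distinct sense genes, 167 were tested, and 27 (16.2%) rose and 32 (19.2%) fell, with a median log2FC of 0.03. These shares stand beside 10.4% and 12.4% of all genes tested, and beside 14.0% and 19.2% of protein-coding genes whose mean count reached 100. By library size alone, 39 were higher and 21 lower. Without knockdown replicate 2, 35 sense genes were called, against 59 with all samples, and without control replicate 3, 39 were called. PAXIP1 and TFAP2A each belonged to 2 members. Of their antisense RNAs, PAXIP1-AS1 rose (0.56, adjusted p = 0.016 from edgeR, held in 2 of the 6 fits with 1 sample left out, with up to 0.067 without control replicate 3), whereas PAXIP1-AS2 was not called (-0.21, adjusted p = 0.41).

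Over the 169 pairs in which both genes were tested, the changes of the antisense RNA and of the sense gene were weakly related (Pearson's r = 0.15, Spearman's rho = 0.15), across pairs that share the 6 libraries and in part their reads. Of the 36 antisense RNAs that rose and had a tested sense gene, the sense gene rose in 10, fell in 5 and was not called in 21. Of the 7 that fell, the sense gene fell in 4 and was not called in 3. The other 126 antisense RNAs were not called, beside 17 sense genes that rose and 24 that fell. The 5 pairs that moved in opposite directions were chosen after their values were seen. They are BTG3-AS1 and A2M-AS1, described above, and the antisense RNAs of MYLK, PAXIP1 and ASH1L. MYLK, myosin light chain kinase, fell by 0.60 (adjusted p = 0.015 from edgeR, and 0.061 without knockdown replicate 2) while MYLK-AS1 rose by 0.52 (adjusted p = 0.044, a call that was held in 0 of the 6 fits with 1 sample left out, with up to 0.12 without knockdown replicate 1). PAXIP1, a partner of histone methyltransferases, fell by 0.31 (adjusted p = 0.0019). ASH1L, itself a histone methyltransferase, fell by 0.29 (adjusted p = 0.0015), and ASH1L-AS1 went from 99, 127 and 81 to 172, 165 and 250 counts (0.79, adjusted p = 0.037, held in 2 of those fits, with up to 0.14 without knockdown replicate 3).

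**Figure D3:**
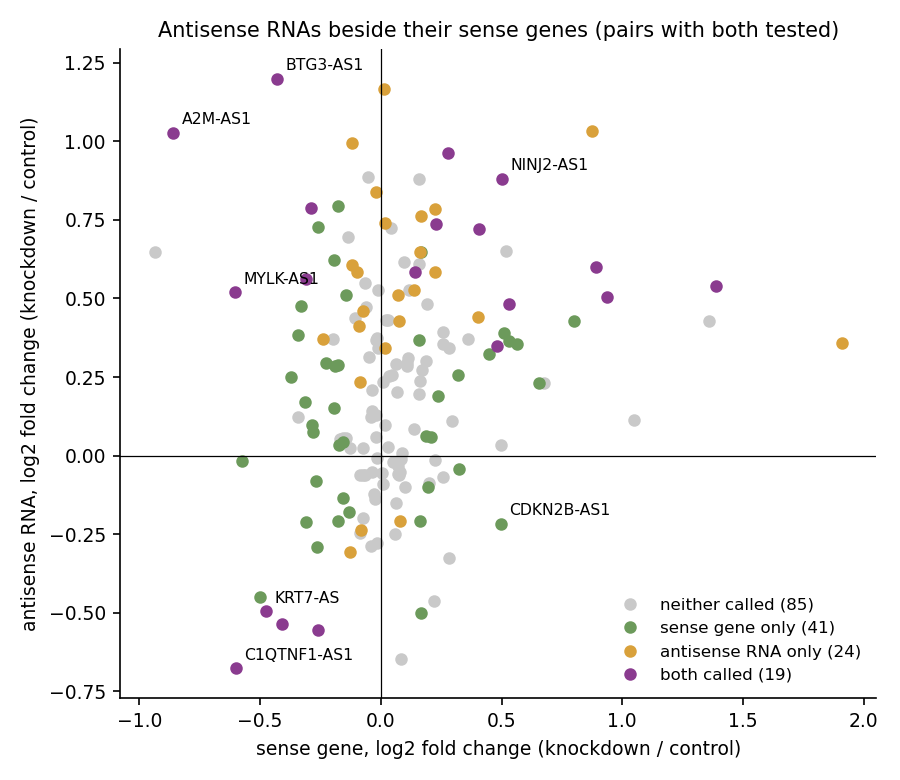
Log2FC (knockdown over control) of the antisense RNA (vertical) against that of its sense gene (horizontal) in the 169 pairs with both tested, with 1 point per pair and colours for which of the 2 was called. In 19 pairs both were called, 24 had only the antisense RNA called and 41 only the sense gene, and BTG3-AS1, A2M-AS1 and MYLK-AS1 stand at the upper left.

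Whether an antisense RNA and its sense gene changed by different amounts was asked with their ratio within each sample, in which library scaling cancels. Over 458 pairs of any mean count, limma called 14 ratios (3.06%), 13 higher and 1 lower in the knockdown, and 12 of these belong to members. BTG3-AS1 over BTG3 rose by 1.62 on the log2 scale (SE 0.19, adjusted p = 0.0068), A2M-AS1 over A2M by 1.92 (adjusted p = 0.024) and PAXIP1-AS1 over PAXIP1 by 0.88 (adjusted p = 0.024). For TMEM161B-AS1 the ratio rose by 0.50 (adjusted p = 0.034), with the antisense RNA rising by 0.41 and TMEM161B at -0.09. For RASSF8-AS1 it rose by 0.56 (adjusted p = 0.037) through RASSF8, a Ras association domain protein, which fell by 0.57 (adjusted p = 4.8e-05 from edgeR) while the antisense RNA was at -0.02. Of the 12 members with a called ratio, the antisense RNA was called higher in 8 and the sense gene called lower in 7, and both held in 4.

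CDKN2B-AS1 (ENSG00000240498, chromosome 9, 21994139 to 22128103), the RNA known as ANRIL, had the 1 ratio that fell. It was counted 658, 695 and 734 times in the control group and 718, 621 and 654 times after knockdown, a log2FC of -0.22 that was not called (adjusted p = 0.14 from edgeR). CDKN2B, which encodes the cell cycle inhibitor p15, had 1047, 998 and 944 counts against 1613, 1381 and 1693 and rose by 0.50 (adjusted p = 0.0028). The ratio was lower by -0.71 on the log2 scale (SE 0.12, adjusted p = 0.032). Next by p among the ratios that fell were PIK3CD-AS2, POT1-AS1, MSC-AS1 and SLC16A1-AS1, with adjusted p between 0.067 and 0.087. The ratio calls were not stable, as 0 pairs were called without limma's trend and between 0 (without knockdown replicate 1) and 19 (without control replicate 1) with 1 sample left out, the others giving 1 or 2. At an unadjusted p below 0.05, limma with the trend gave 88 of the 458 pairs.

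**Figure D4:**
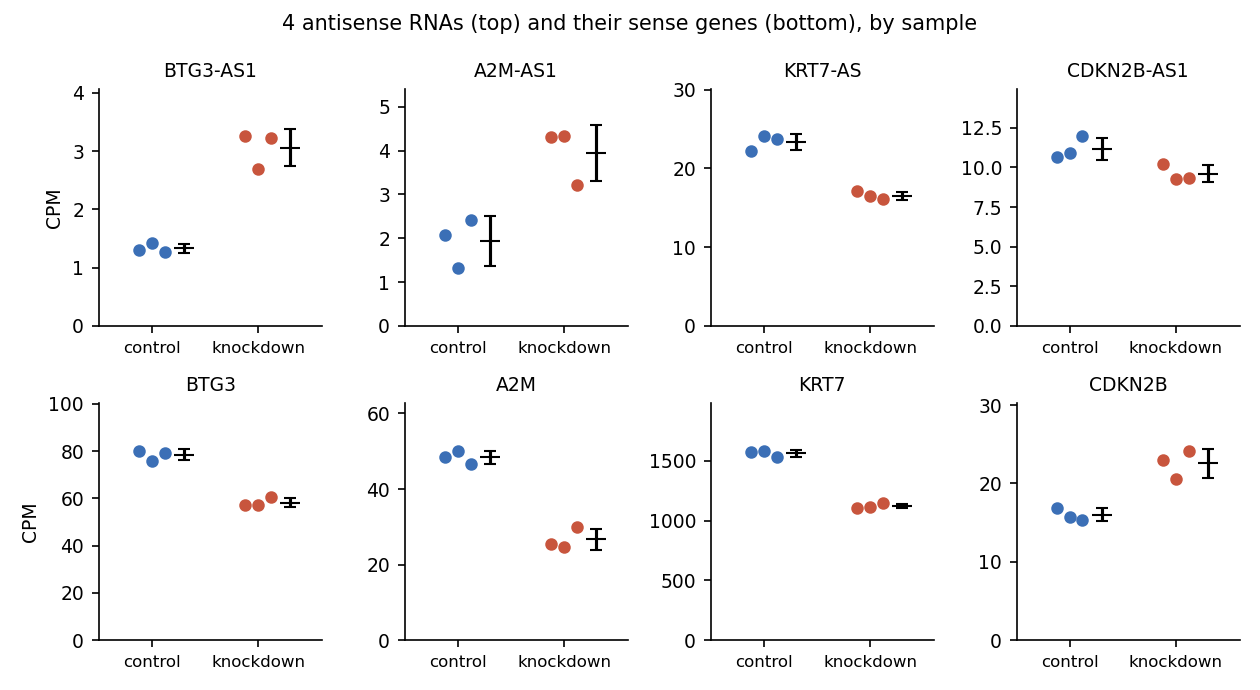
TMM-scaled CPM (vertical, from 0) of 4 antisense RNAs in the upper row and their sense genes in the lower row, with blue points for the 3 control and red points for the 3 knockdown samples and the mean with its SD beside them. BTG3-AS1 and A2M-AS1 are higher and their sense genes lower in the knockdown, KRT7-AS and KRT7 are both lower, and CDKN2B is higher with CDKN2B-AS1 at 9.61 ± 0.542 against 11.2 ± 0.695 CPM.

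Rises were counted in each arrangement, at shares near the 21.3% of all members and above the 10.4% of all genes, without a test of either difference. Of the 84 head to head members, 20 rose (23.8%) and 5 fell, with a median log2FC of 0.31. Of the 47 tail to tail members, 8 rose (17.0%) and 1 fell, with a median of 0.20. Among the 22 inside the sense gene, 4 rose (18.2%) and 1 fell, and among the 15 that enclose it, 3 rose (20.0%). The median member had 10.7% of its exonic bases under exons of the other strand in GENCODE release 29, and whether the counting used strand is not given in the sources used here. Where there was none, in 27 members, 8 rose (29.6%) and 2 fell, with a median of 0.29. With up to 25% of the bases shared, 23 of 104 rose (22.1%) and 4 fell, with over 25 to 50% 6 of 38 rose (15.8%) and 0 fell, and with more than 50% 1 of 9 rose (11.1%) and 1 fell, with medians of 0.23, 0.30 and 0.19. The share that rose was thus lower at each step of overlap while the medians were not, and neither was tested. The part of shared reads in the members' changes was not tested. The 8 without overlap include SCAMP1-AS1 (0.58, adjusted p = 0.0072 from edgeR), PAXIP1-AS1 and UBAC2-AS1.

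Other gene classes were counted in the same fit. Among 608 other lncRNA genes at or above the same mean count, 115 (18.9%) rose and 31 (5.10%) fell, with a median log2FC of 0.20. Without knockdown replicate 2 these were 63 and 17, without control replicate 3 they were 74 and 19, without control replicate 2 77 and 21, without knockdown replicate 1 79 and 23, and without knockdown replicate 3 79 and 19, while the unfiltered fit gave 64 and 15 and scaling by library size 145 and 19. Among 11222 protein-coding genes, 1570 (14.0%) rose and 2160 (19.2%) fell, with a median of -0.02 (2321 higher and 1426 lower by library size, with a median of 0.04, and 984 higher and 1426 lower without knockdown replicate 2). Among 557 pseudogenes, 18 were higher and 20 lower, against 9 and 10 without knockdown replicate 2 and 31 and 13 by library size. The change also differed by abundance. In protein-coding genes with a mean count of 100 to 300 the median was 0.14, with 137 of 1045 higher and 42 lower, and in those with 3000 or more it was -0.06, with 612 of 4897 higher and 1508 lower. The 100 antisense RNAs with 100 to 300 counts had a median of 0.36 (17 higher, 1 lower), or 0.29 (13 and 1) over the 83 without those that met the rule only through the knockdown samples, the 52 with 300 to 1000 counts 0.15 (17 and 2) and the 22 with 1000 to 3000 counts 0.06 (4 and 3). Only 4 had 3000 counts or more. The differences between these classes were not tested.

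**Figure D5:**
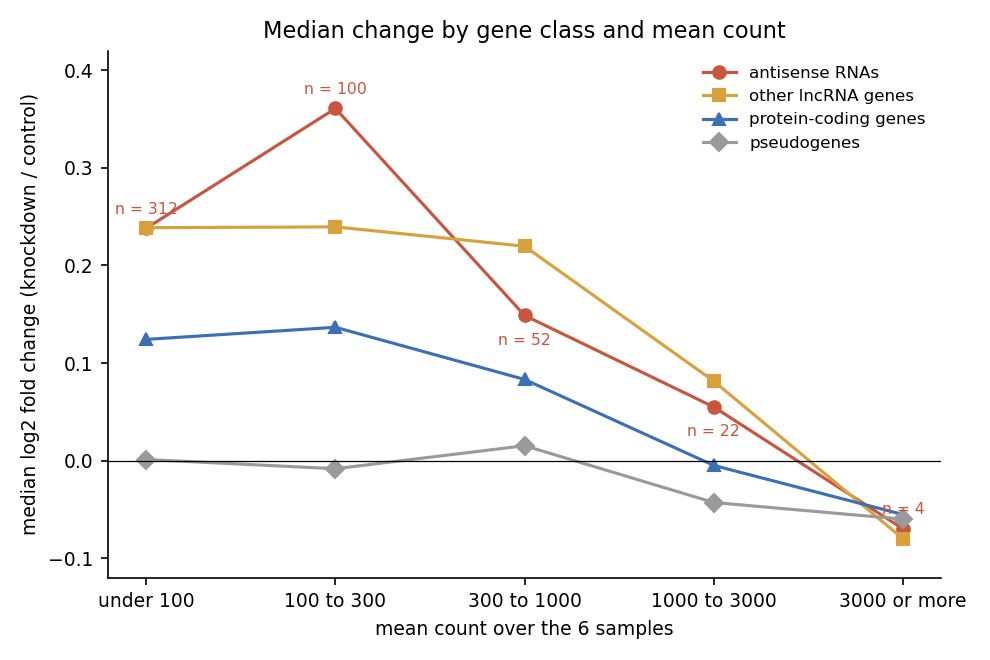
Median log2FC (knockdown over control, vertical) of the tested antisense RNAs, other lncRNA genes, protein-coding genes and pseudogenes in 5 bands of the mean count over the 6 samples (horizontal), with n for the antisense RNAs. Antisense RNAs and other lncRNA genes lie above the protein-coding genes up to 3000 counts, the highest antisense band holds 4 genes, and pseudogenes stay near 0.

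The whole libraries were compared as well. The members made up 0.174%, 0.171% and 0.170% of all counts in the control group and 0.192%, 0.189% and 0.186% after knockdown, and the groups did not overlap. By contrast, all lncRNA genes held 1.47%, 1.48% and 1.42% of the counts in the control and 1.40%, 1.41% and 1.43% in the knockdown samples, which overlap. Mitochondrial genes took 5.40%, 5.19% and 5.40% against 5.03%, 5.02% and 4.79%. Genes with at least 1 count numbered 24176, 23588 and 23678 against 24780, 24533 and 24471, so more genes were detected in each of the knockdown samples, which were also deeper. The part of depth and of mitochondrial RNA in the members' change was not tested.

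Antisense and promoter-derived RNAs are commonly removed by the nuclear exosome, which is led to them by adaptor complexes, or are cut short by early termination. Of 25 genes of the exosome and its adaptors, 4 were higher and 8 lower, with a median log2FC of -0.07. ZCCHC8 (-0.38, adjusted p = 0.00065 from edgeR) and RBM7 (-0.27, adjusted p = 0.015, and 0.056 without control replicate 1) form the adaptor NEXT with the helicase MTREX (-0.03, not called). The core subunit EXOSC9 (-0.33, adjusted p = 0.00026) and the nuclease DIS3 (-0.30, adjusted p = 0.0036) were lower as well, and SRRT, which joins the cap-binding complex to the exosome, fell by 0.18 (adjusted p = 0.0043). Higher were EXOSC6 (0.32, adjusted p = 0.024, and up to 0.098 without knockdown replicate 2) and EXOSC7 (0.29, adjusted p = 0.010) of the core, ZFC3H1 (0.19, adjusted p = 0.043, and up to 0.14 without control replicate 2) of the adaptor PAXT and the cap-binding NCBP1 (0.15, adjusted p = 0.046, and up to 0.16 without control replicate 3). By library size 5 were higher and 6 lower. With 1 sample left out between 1 (without control replicate 3 or knockdown replicate 2) and 3 (without knockdown replicate 3) were higher, with 2 in the other fits, and between 5 (without control replicate 1) and 7 (without control replicate 2) lower, and the unfiltered fit gave 2 and 5.

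Of 20 genes of early termination and the U1 snRNP, 4 rose and 6 fell, with a median of 0.02. With scaling by library size, which moves all genes alike, 7 rose and 5 fell. The cleavage factor NUDT21 (-0.23, adjusted p = 0.0019 from edgeR), CSTF1 (-0.23, adjusted p = 0.0073) and the torpedo exonuclease XRN2 (-0.18, adjusted p = 0.0096) fell, and CPSF4 (0.35, adjusted p = 0.0048) and the Integrator subunit INTS1 (0.19, adjusted p = 0.0058) rose. Of 20 genes that act on double-stranded RNA, 2 were higher and 7 lower (3 and 3 by library size, and 1 and 4 in the unfiltered fit). None was called higher without control replicate 1, knockdown replicate 1 or knockdown replicate 2, 1 without control replicate 3, and 4 were lower without control replicate 1 or control replicate 3. Among them DGCR8, which binds microRNA precursors, fell by 0.30 (adjusted p = 0.0030), AGO2 by 0.25 (adjusted p = 0.0032) and XPO5 by 0.21 (adjusted p = 0.0034), and the RNA sensor DDX58 rose by 0.31 (adjusted p = 0.016, and up to 0.061 without knockdown replicate 2). All of these are protein-coding genes, among which 19.2% were lower and 14.0% higher at a mean count of at least 100. At a mean count of 3000 or more, which many of the listed genes reached, 30.8% were lower and 12.5% higher. What the changes of the listed genes have to do with the antisense RNAs was not tested.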

How the data were processed

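Reads from an Illumina NovaSeq instrument had been mapped with HISAT2. The submitters' processing notes name cutadapt 1.9, FastQC and GRCh38. The authors deposited raw counts per gene, without normalization, and FPKM values, scaled by gene length and library size. The counting program, its use of strand and the annotation are not given in the sources used here. The table's coordinates overlapped those of GENCODE release 29 for 99.88% of 32092 common genes.

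The quasi-likelihood test of edgeR 4.0.16 (R 4.3.3) was run with TMM scaling and only a group term on 18390 genes kept by filterByExpr, and p-values were adjusted over all of them (Benjamini-Hochberg). The log2 ratio of each antisense to its sense count (0.5 added) was tested with limma 3.58.1 with a trend. With 3 against 3 samples an exact permutation test cannot go below 0.1, so none is given. Alternatives were DESeq2 1.42.0, DESeq2's size factors, library size, no filter, a mean count of 50, a replicate block, limma on log2(FPKM + 0.1) and each sample left out. The fits were tested on simulated data with known changes. For the ratio test these gave every pair the same setting of the spread, so they cannot speak to the instability of its calls here.

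Named genes were ZNF706, the 6 members highest in FPKM, the 8 largest rises and falls (7 falls were called) that do not overlap, their sense genes, the 5 smallest p of the ratio test in each direction, a list of well-studied antisense RNAs and the members nearest the mean count of 100. Others were named after their values were seen. The members and lists were chosen with earlier results of these data known. Some genes covered by the rule are not reported here.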

Additional observations from a re-analysis of the deposited data

How the results depend on the processing

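ZNF706 kept its call in every alternative run. Without the filter, 27 members were called (22 higher), 36 sense genes were called and 14 of them were higher. With library size or limma on FPKM, 4 members were lower, 21 and 20 sense genes were lower, and the members' median log2 fold change was 0.31 and 0.28. The other alternatives kept each member and sense count within 1.5 times. With 1 sample left out, the called members ranged from 24 to 38, the higher ones from 20 to 34, the lower ones from 3 to 4, the called sense genes from 35 to 49, the higher ones from 13 to 20, the lower ones from 21 to 29, the called ratios from 0 to 19 and the members' median from 0.22 to 0.28. The ratio test called 0 pairs without the trend.

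Same-numbered samples did not deviate together (r = 0.034, -0.036 and -0.016), which gives no sign of a pairing but cannot exclude one. A replicate block gave 49 called members and 0 called ratios.

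The alternatives were run for the 19 antisense RNAs named for their level or change and their 18 tested sense genes (SNAI3 had no value by DESeq2, with the mean count of at least 50 or by limma on FPKM), and of these 478 values 402 kept direction and side of the threshold, 47 lost a call, 10 gained one and 19 turned sign, all in uncalled genes. The other named genes were not in this tally. With 1 sample left out, the ranges were -0.16 to 0.15 for MIF-AS1, -0.19 to 0.35 for SNAI3, -0.077 to 0.044 for CCDC18, -0.11 to 0.22 for THAP9, -0.064 to 0.10 for OIP5, -0.058 to 0.10 for VPS9D1 and -0.035 to 0.10 for MIF. CCDC18 was at 0.033 with library size and 0.030 with FPKM. The causes were not tested.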

Other observations

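Antisense RNAs below the mean count of 100 numbered 742, of which 312 passed the filter and 45 had no count in any sample. Of those tested, 14 (4.49%) were higher and 3 (0.962%) lower in the knockdown by edgeR's quasi-likelihood test, beside 10.4% and 12.4% of all genes and 2.38% and 0.424% of other lncRNA genes below this mean count, and 206 lay above 0, with a median log2FC (log2 fold change of knockdown over control) of 0.24. ATXN1-AS1 had 21, 29 and 31 counts in the control and 85, 84 and 82 in the knockdown samples, which do not overlap, with a log2FC of 1.48 (adjusted p = 0.0066 from edgeR). ZEB1-AS1, beside the gene of a repressor of epithelial genes, had 56, 36 and 35 counts against 119, 104 and 85 (log2FC 1.13, adjusted p = 0.022, and 0.05 was passed in 2 of the 6 fits with 1 sample left out). POT1-AS1 fell from 42, 19 and 27 to 10, 9 and 5 counts (log2FC -2.01, adjusted p = 0.033, passed in 1 of those fits). These 3 were chosen after their values were seen. Just inside the threshold were DGUOK-AS1, with a mean count of exactly 100, and KMT2E-AS1 and PRR7-AS1, both at 101, and just outside it were H1-10-AS1 with 99.2, LPP-AS2 with 98.8 and ELOA-AS1 with 98.7. LPP-AS2 was called higher, with 72, 65 and 63 counts against 124, 146 and 123 (log2FC 0.83, adjusted p = 0.023 from edgeR, passed in 3 of those fits).

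Other classes of noncoding RNA with a mean count of at least 100 were looked at after the data were seen. Of 29 divergent transcripts, whose names end in -DT, 9 (31.0%) were higher and 0 lower, beside 10.4% and 12.4% of all genes tested. Their median log2FC was 0.31, and by DESeq2 10 were higher and 0 lower. The count of rises was 5 in the unfiltered fit, 4 without control replicate 3 or knockdown replicate 2, 5 without control replicate 2 or knockdown replicate 3, 6 in the fits without replicate 1 of either group, and 12 by library size. Of 90 LINC genes, 17 (18.9%) were higher and 2 (2.22%) lower. The rises numbered 9 in the unfiltered fit and between 10 and 13 with 1 sample left out. They were 10 without control replicate 3, knockdown replicate 1 or knockdown replicate 2, and 11 without control replicate 1 or control replicate 2. Of 20 small nucleolar RNA host genes, 3 (15%) were higher and 5 (25%) lower. The counts were 3 and 3 without control replicate 3, without knockdown replicate 2, in the unfiltered fit or by limma on FPKM. The differences between these classes were not tested.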
